A study of Culter alburnus with 6 samples.

Results

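The keratins, the proteins of the desmosome, the plakins that tie both to the rest of the cytoskeleton, and the mesenchymal filament protein vimentin were followed in a fish fin cell line with and without Forskolin. The members were chosen by name alone, as the rows of the expression table whose closest protein in the NR database was called keratin, periplakin, envoplakin, desmoplakin, plakophilin, desmoglein, desmocollin, epithelial cell adhesion molecule, vimentin, plectin or desmin. The rule found 52 of the 61608 assembled genes, and no measured value entered it. Because names came from proteins of other species, mostly the bream Megalobrama amblycephala (34 of the 52), several rows can be pieces or copies of 1 gene, and the 52 rows carried 42 different names.

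The cells were TCCF2022, a wild-type line that was grown from the caudal fin of Topmouth culter (Culter alburnus) and is labelled as fibroblasts. As labelled, both groups were kept at 27 °C in medium with 10% fetal bovine serum and 5 ng/mL bFGF, a fibroblast growth factor. The control group (CK, n = 3) received nothing further, and the Forskolin group (F, n = 3) received 5 μM Forskolin, a plant compound that activates adenylate cyclase and raises cyclic AMP, with RNA taken at day 7. A general culture passage in the study's methods gives other amounts of bFGF and Forskolin, and the amounts here are those of the labels. For Forskolin, the caption of the study's transcriptome figure gives the same 5 μM and day 7 as the labels. Values were in TPM, a length-corrected share of all transcripts in a library, so the number of reads behind a value is unknown.

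Keratins are the intermediate filament proteins of epithelial cells, and a filament is built from pairs of a type I and a type II keratin. In simple epithelia the usual pair is keratin 18 with keratin 8, and in fish these keratins are also found in some cells that are not epithelial. Desmosomes fasten neighbouring cells to each other: desmogleins and desmocollins span the membrane, plakophilins and plakoglobin sit beneath them, and desmoplakin connects that plaque to the keratin filaments. Vimentin takes the place of keratins in most mesenchymal cells.

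The cells carried far more keratin than vimentin RNA, in both groups. Summed over the 13 rows of filament keratins, the level was 8683, 8544 and 8420 TPM in CK replicates 1, 2 and 3 and 7097, 7190 and 6291 TPM in F replicates 1, 2 and 3. Every F library lay below every CK library, and the F mean was 0.802 of the CK mean. The share of all TPM went from 0.855% to 0.686%. The 2 vimentin rows together reached only 17.1, 21.6 and 24.6 TPM in CK and 16.2, 20.2 and 12.5 TPM in F, and those ranges overlapped. The ratio of summed keratin to summed vimentin ran from 342 to 508 in CK and from 356 to 502 in F, so it did not separate the groups. These sums are descriptions without a test, and in bulk RNA fewer cells of a type and less RNA per cell cannot be told apart.

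**Figure D1:**
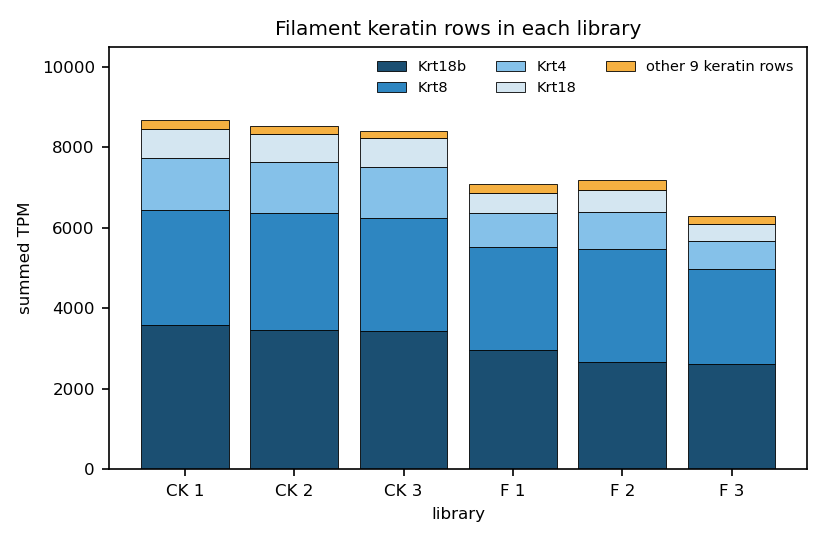
Summed TPM of the 13 filament keratin rows (vertical axis) in each of the 6 libraries, stacked by row with Krt18b at the bottom and the 9 less abundant rows together at the top. The 3 CK bars reach 8420 to 8683 TPM and the 3 F bars 6291 to 7190 TPM, and the 4 named rows make up 97.7% of the sum in CK and 96.8% in F.

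The label of fibroblasts was set against marker genes. Fibroblast markers (type I collagen chains, decorin, lumican, periostin and platelet-derived growth factor receptors, 14 rows) summed to 4734 to 5221 TPM in CK and 3080 to 4477 TPM in F. Lumican went from 1298, 1468 and 1558 TPM in CK to 303, 310 and 214 TPM in F. The main collagen alpha-2(I) row was also lower in every F library, decorin was higher, and collagen alpha-1(I) overlapped. Periostin isoform X1 was at 18.8 to 21.1 TPM in CK and at most 0.09 TPM in F. Periostin b went the other way, from 7.02, 7.31 and 8.82 TPM in CK to 16.6, 19.9 and 10.8 TPM in F. Both periostin rows came from the same assembly cluster, so the division of reads between them is uncertain. Genes that define fibroblasts were thus abundant. The most abundant keratin 8 and keratin 18b rows nevertheless lay at 2364 TPM or more in all 6 libraries while no vimentin value exceeded 16.6 TPM, which is not the usual pattern of mammalian fibroblasts. A list meant for epidermal epithelium (23 rows, mostly claudins) summed to 195.3 to 196.4 TPM in CK and 124.1 to 155.4 TPM in F. It took claudins of any kind by name, so its sum does not measure epidermal content. That list holds 1 member, EpCAM, and without it the sum was 105.6 to 118.1 TPM in CK and 91.6 to 126.1 TPM in F, ranges that overlapped. Its single rows differed: claudin-12, the most abundant of the rest, overlapped. Claudin-19 went from 7.12, 9.89 and 13.1 TPM in CK to 3.22, 2.85 and 3.73 TPM in F. A claudin-4 row (TRINITY_DN7952_c0_g1) went from 13.9, 12.9 and 9.92 TPM to 4.06, 6.22 and 5.29 TPM. The low claudin-5b and grainyhead-like 2b rows were higher in every F library. Lists of further cell types were also summed, without a test. Over all rows tested below, 16.4% were higher in every F library than in every CK library, and 15.7% were lower. The neuron list (4 rows) summed to 1860 to 1909 TPM in CK and 1256 to 1281 TPM in F. Nearly all of it came from 1 row named neurogenic differentiation factor 2. That row passed the test described below (log2 change -0.58, limma, adjusted p = 0.00665). The 2 synapsin-3 rows of the list stayed at or below 6.18 TPM, so the sum rests on 1 name and does not measure neurons. The osteoblast list (3 rows) summed to 28.4 to 59.7 TPM in CK and 62.2 to 95.2 TPM in F, higher in every F library. That difference came from its most abundant row, the transcription factor Sp7 (22.5 to 47.8 TPM in CK, 57.4 to 94.2 TPM in F). The Sp7 row did not pass the test described below (limma, adjusted p = 0.0650). Osteocalcin 2 went the other way, from 3.62, 3.64 and 4.34 TPM in CK to 0.85, 0.50 and 0.44 TPM in F, and the osteocalcin row overlapped. The skeletal muscle list (10 rows) was lower in every F library, at 28.9 to 37.4 TPM in CK and 21.7 to 28.2 TPM in F, and leukocyte markers (5 rows) overlapped at 4.6 to 12.6 TPM and 6.66 to 17.2 TPM. The part of cell type content in the changes described here was not tested.

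Each row was tested for a difference between F and CK with limma on log2(TPM + 1), with p-values adjusted by the Benjamini-Hochberg method over the 37532 rows that reached 1 TPM in at least 3 libraries. A log2 change on this scale understates the change of low rows. Of the 52 members, 39 were tested and 13 were too low, with a highest mean of 3.26 TPM. At an adjusted p under 0.05, 3 members rose in F and 9 fell, which is 7.69% and 23.1% of the tested members, beside 6.15% and 6.07% of all tested rows. With a log2 change beyond 1 also required, 2 rose and 4 fell, against 3.27% and 3.9% of all tested rows. The libraries of the groups did not overlap for 9 tested members above and 12 below, where over all tested rows the shares were 16.4% above and 15.7% below. The median log2 change of the tested members was 0.05, next to -0.01 over all tested rows. The 3 F replicates were not alike: among the F libraries, replicate 2 was the highest for 27 of the 39 tested members, and for 43.9% of all tested rows.

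**Figure D2:**
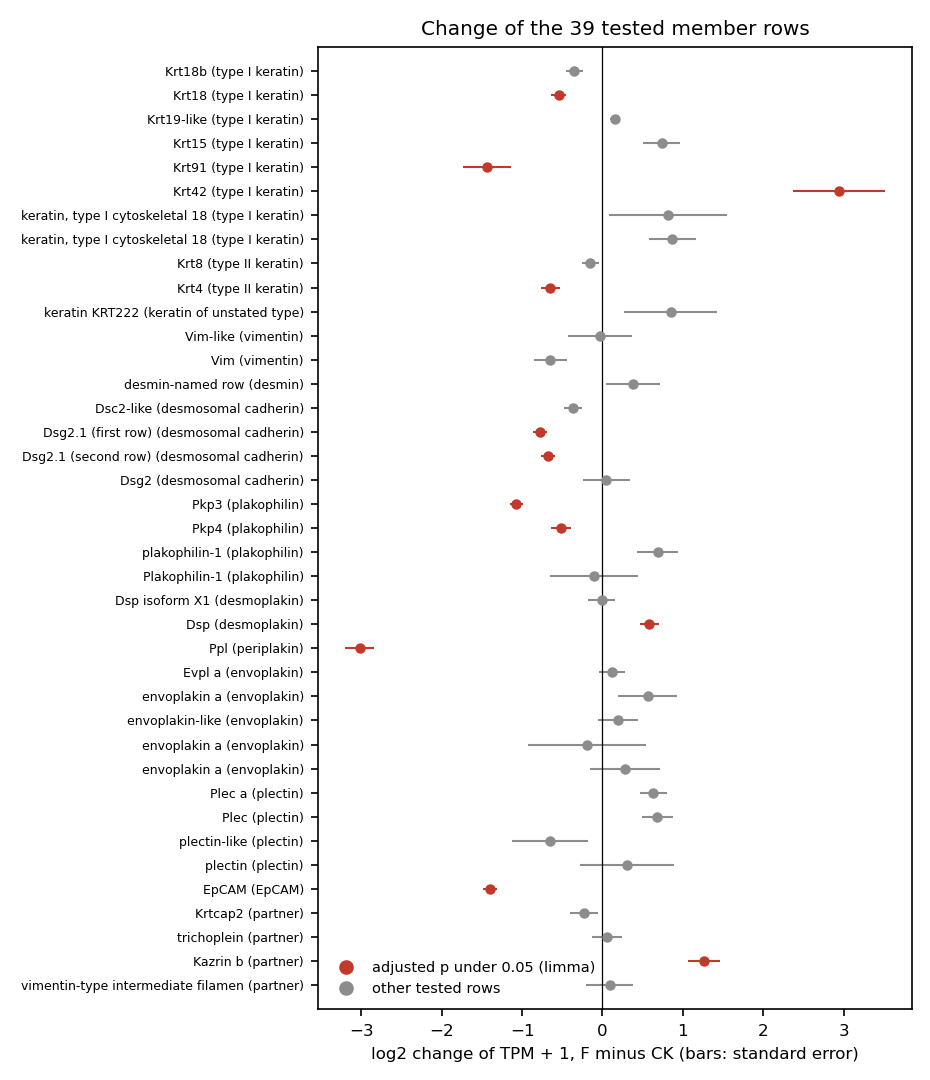
Log2 change of TPM + 1 between F and CK (horizontal axis, points with standard error bars) for the 39 tested members, grouped by protein class. Red points mark the 12 rows with an adjusted p under 0.05, of which 9 lie left of 0 and 3 right of it, and periplakin at -3.02 and keratin 42 at 2.94 are the farthest out.

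Among the type I keratins, 1 of 8 tested rows rose (12.5%) and 2 fell (25%), beside 6.15% and 6.07% of all tested rows. Keratin 18b (Krt18b, TRINITY_DN440_c0_g1), a form of the main type I keratin of simple epithelia, was the most abundant member. It stood at 3586, 3456 and 3440 TPM in CK and at 2963, 2660 and 2610 TPM in F. The groups did not overlap, and the row ranked 21st of all rows by mean TPM in CK and 53rd in F. Its log2 change of -0.35 (SE 0.10) did not pass the test (limma, adjusted p = 0.0852), although it passed with a filter at 5 TPM (0.0178) and with quantile normalization (0.0333). A further keratin 18 row (Krt18, TRINITY_DN2068_c0_g1) measured 724, 711 and 711 TPM in CK and 498, 543 and 435 TPM in F. It fell by 0.54 on the log2 scale (limma, adjusted p = 0.0171), a mean ratio of 0.688. The call was lost without CK replicate 1, 2 or 3 or F replicate 1 (adjusted p between 0.0605 and 0.0731), and also without the mean trend in the variance (0.0697). A block for replicate number lost it as well (0.0623).

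Keratin 91 (Krt91), placed with type I by its closest Swiss-Prot protein, had the lowest log2 change of the tested keratins. Its values were 76.8, 58.0 and 48.8 TPM in CK and 23.1, 30.5 and 14.1 TPM in F. The F libraries all lay below CK, with a log2 change of -1.44 (SE 0.29, limma, adjusted p = 0.0282). Leaving out CK replicate 1, 2 or 3 or F replicate 1 raised the adjusted p to between 0.0589 and 0.0888, and fitting no mean trend gave 0.0537.

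Keratin 42 (Krt42) moved the other way, from almost nothing. It was listed at 0.21, 0.32 and 0.06 TPM in CK and at 10.8, 16.5 and 2.74 TPM in F. Every F library was above every CK library, yet the F libraries differed widely among themselves. The log2 change was 2.94 (SE 0.57, limma, adjusted p = 0.0239), and 4.86 with a pseudocount of 0.1, because the CK level lies far below the pseudocount of 1. The call did not hold without CK replicate 1, 2 or 3 or F replicate 1 or 2 (adjusted p between 0.0598 and 0.0875).

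The keratin 42 row came from the same assembly cluster as a keratin 19-like row (Krt19-like), so reads of these relatives may have been split uncertainly between them. The keratin 19-like row measured 92.7, 86.2 and 85.7 TPM in CK and 95.1, 97.1 and 103 TPM in F, with a log2 change of 0.16 (limma, adjusted p = 0.203). Both rows summed to 88.4 ± 3.94 TPM in CK, and in F their sum was 108 ± 4.49 TPM (SD, n = 3 each), a ratio of 1.23. Every F sum (105.8 to 113.6 TPM) was above every CK sum (85.8 to 93.0 TPM), and the keratin 19-like row was itself higher in every F library. The keratin 42 row alone differed by a mean ratio of 50.9.

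The row named keratin 15 (Krt15) had a type I keratin of 50 kDa as its closest Swiss-Prot protein, so its keratin number is uncertain. It measured 41, 50.1 and 48.0 TPM in CK and 87.6, 99.2 and 53.7 TPM in F. The groups did not overlap, although F replicate 3 was close to CK, and the log2 change of 0.74 missed the threshold (limma, adjusted p = 0.10).

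Of the type II keratins, 1 of 2 tested rows fell, where 6.07% of all tested rows did, and the third row was too low to test. Keratin 8 (Krt8), the partner of keratin 18, stood at 2870, 2911 and 2808 TPM in CK and at 2561, 2820 and 2364 TPM in F. The groups overlapped through F replicate 2, and the log2 change was -0.15 (limma, adjusted p = 0.461). The row named keratin 4 (Krt4) had intermediate filament protein ON3 as its closest Swiss-Prot protein, so its keratin number is uncertain. It measured 1291, 1268 and 1276 TPM in CK and 850, 915 and 698 TPM in F. It fell by 0.65 on the log2 scale (SE 0.12, limma, adjusted p = 0.0180), with no overlap. Without CK replicate 1, 2 or 3 or F replicate 1 the adjusted p was between 0.0567 and 0.0738, and without the mean trend it was 0.0558. With a block for replicate number it was 0.0625.

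The keratin 8 and keratin 4 rows also shared an assembly cluster, so the division of reads between them is uncertain. Their sum is less sensitive to that division, though not free of it because TPM is corrected for length: CK had 4141 ± 50.1 TPM and F had 3402 ± 337 TPM (SD, n = 3 each). For the 8 type I rows the sum was 4406 ± 100.5 TPM in CK, and F reached 3452 ± 231 TPM (SD, n = 3 each). The ratio of type I to type II was therefore close to 1 in both groups, at 1.04 to 1.09 in CK and 0.923 to 1.08 in F.

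The mesenchymal side of the list was small. The vimentin-like row measured 5.52, 12.5 and 16.6 TPM in CK and 11.4, 12.8 and 7.51 TPM in F, a log2 change of -0.03 (limma, adjusted p = 0.974). The CK libraries alone spanned the whole F range. The row named vimentin had 11.6, 9.09 and 7.97 TPM in CK and 4.83, 7.36 and 5.03 TPM in F. Here F lay below CK, but the log2 change of -0.65 did not pass (limma, adjusted p = 0.103). The single row named desmin, the filament protein of muscle, ranged from 0.84 to 1.53 TPM in CK and from 0.92 to 2.47 TPM in F (limma, adjusted p = 0.559), and its closest Swiss-Prot protein was a keratin, so its name is doubtful.

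**Figure D3:**
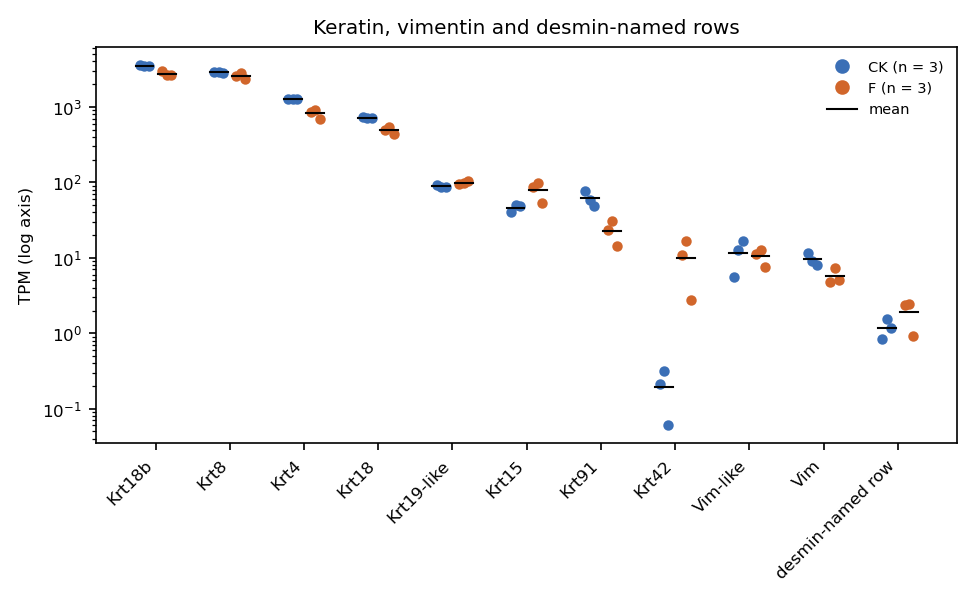
TPM on a log axis for 8 keratin rows, 2 vimentin rows and the row named desmin, with 1 point per library (CK blue, F orange, n = 3 each) and a line at each mean. Keratins 18b and 8 lie at 2364 TPM or more in all libraries, vimentin rows lie between 4.83 and 16.6 TPM, and keratin 42 is below 1 TPM in CK and at 2.74 to 16.5 TPM in F.

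Of the 10 tested rows of desmosome proteins, 4 fell (40%) and 1 rose (10%), beside 6.07% and 6.15% of all tested rows. The 4 that fell include 2 rows with the name desmoglein-2.1, and the class was not tested as a group. The desmosomal cadherins summed to 110 ± 3.59 TPM in CK, against 72.5 ± 6.30 TPM in F (SD, n = 3 each). The plakophilins summed to 145 ± 7.49 and 72.1 ± 6.94 TPM, respectively. For desmoplakin, CK had 47.4 ± 5.85 TPM and F 56.8 ± 8.82 TPM. The cadherin and plakophilin sums were lower in every F library, whereas the desmoplakin sums overlapped.

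Plakophilin-3 (Pkp3), the plaque protein that binds the widest set of desmosomal cadherins, was the most abundant desmosome member. Its values were 119, 134 and 137 TPM in CK and 59.5, 66.0 and 58.4 TPM in F. All F libraries lay far below CK, with a mean ratio of 0.471. The log2 change of -1.07 (SE 0.08, limma, adjusted p = 0.00119) passed in every alternative setting. Plakophilin-4, a relative found at adherens junctions and desmosomes, had 9.17, 8.85 and 10.1 TPM in CK and 5.79, 6.84 and 6.04 TPM in F. It fell by 0.52 on the log2 scale with an adjusted p close to the threshold (limma, 0.0456), and it lost the call without CK replicate 1, 2 or 3 or F replicate 1 or 3 (0.0942 to 0.149), without the mean trend (0.0692) and without a filter on low rows (0.0779). A block for replicate number lost it as well (0.140).

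The plakophilin-1 and plakophilin-2 rows were all low, and 5 of the 7 were not tested. One plakophilin-1 row (TRINITY_DN38305_c0_g1) read 2.38, 0.53 and 2.51 TPM in CK and was listed at 0 in all 3 F libraries. Another (TRINITY_DN23956_c0_g5) went from 0.41, 0.58 and 0.74 TPM to 1.56, 1.79 and 1.27 TPM (limma, adjusted p = 0.156). Rows of 1 name thus pointed in opposite directions at levels near the limit of the table. Both were singled out after their values were seen.

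Both rows named desmoglein-2.1, a cadherin of the desmosome, fell. The first (TRINITY_DN35055_c0_g1) measured 33.0, 33.9 and 36.8 TPM in CK and 19.4, 21.5 and 18.4 TPM in F, a log2 change of -0.78 (limma, adjusted p = 0.00442). The second (TRINITY_DN3822_c0_g1) measured 28.6, 27.9 and 30.9 TPM in CK and 18.5, 18.4 and 16.7 TPM in F, a log2 change of -0.67 (limma, adjusted p = 0.00571). Neither row overlapped between groups, and both passed in every alternative setting. The desmocollin 2-like row, the other kind of desmosomal cadherin, had 31.4, 31.8 and 33.6 TPM in CK and 22.4, 29.1 and 23.5 TPM in F. It was lower in every F library, and its log2 change of -0.36 did not pass (limma, adjusted p = 0.0969), although it did with quantile normalization (0.0390) and scaling by median of ratios (0.0414). The most abundant desmoglein-2 row ranged from 5.86 to 14.6 TPM in CK and from 8.98 to 10.7 TPM in F (limma, adjusted p = 0.943), and desmoglein-1-gamma was listed at 0 in all 6 libraries.

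The 2 desmoplakin rows behaved differently from each other. The row named desmoplakin isoform X1 measured 25.3, 29.3 and 33.7 TPM in CK and 23.9, 35.4 and 28.8 TPM in F, a log2 change of -0.01 (limma, adjusted p = 0.979). The row named desmoplakin (TRINITY_DN573_c0_g1), matched to a protein model of low quality, measured 16.2, 18.1 and 19.5 TPM in CK and 24.2, 30.4 and 27.8 TPM in F. This row rose by 0.58 on the log2 scale (SE 0.12, limma, adjusted p = 0.0260) without overlap. It lost the call without CK replicate 1, 2 or 3 or F replicate 2 or 3 (0.0572 to 0.0921), without the mean trend (0.0739) and with a block for replicate number (0.0526). The difference between the 2 rows was not tested.

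Epithelial cell adhesion molecule (EpCAM), a surface protein of epithelia and of some stem cells, measured 90.5, 83.7 and 77.2 TPM in CK and 32.5, 29.3 and 31.6 TPM in F. All F libraries lay far below CK, with a mean ratio of 0.371. The log2 change of -1.40 (SE 0.08, limma, adjusted p = 0.000542) passed in every alternative setting.

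Periplakin (Ppl), a plakin that links keratin filaments to the desmosome and the cell membrane, had the lowest log2 change of the tested members. It measured 18.5, 19.9 and 21.5 TPM in CK and 1.67, 2.06 and 1.10 TPM in F. The CK mean was 12.4 times the F mean, and the log2 change was -3.02 (SE 0.18, limma, adjusted p = 0.000532), which passed in every alternative setting. Envoplakin, with which periplakin pairs in the cornified envelope of mammalian skin, showed no such difference. Its most abundant row had 5.35, 4.90 and 3.89 TPM in CK and 5.08, 5.44 and 4.97 TPM in F (limma, adjusted p = 0.722), and none of the 5 envoplakin rows passed. Of these 5 rows, 4 came from 1 assembly cluster.

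Plectin is the plakin that links intermediate filaments to actin and microtubules. Both of its more abundant rows were higher in F without passing the test. The plectin a row (Plec a) had 75.4, 75.5 and 91.7 TPM in CK and 119, 160 and 103 TPM in F, a log2 change of 0.63 (limma, adjusted p = 0.0675). A second plectin row (Plec) had 19.1, 23.2 and 32.9 TPM in CK and 38.8, 42.5 and 38.3 TPM in F, a log2 change of 0.68 (limma, adjusted p = 0.0719). In both rows every F library was above every CK library. Of the 7 plectin rows, 4 were tested and none passed. Among the low ones, a plectin-like row (TRINITY_DN25024_c0_g2) had a log2 change of -0.65 (limma, adjusted p = 0.479). A row named plectin (TRINITY_DN22438_c0_g2) had 0.31 (limma, adjusted p = 0.798). The plectin a row did pass with scaling by median of ratios (adjusted p = 0.0314), quantile normalization (0.0361) or a filter at 5 TPM (0.0415).

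**Figure D4:**
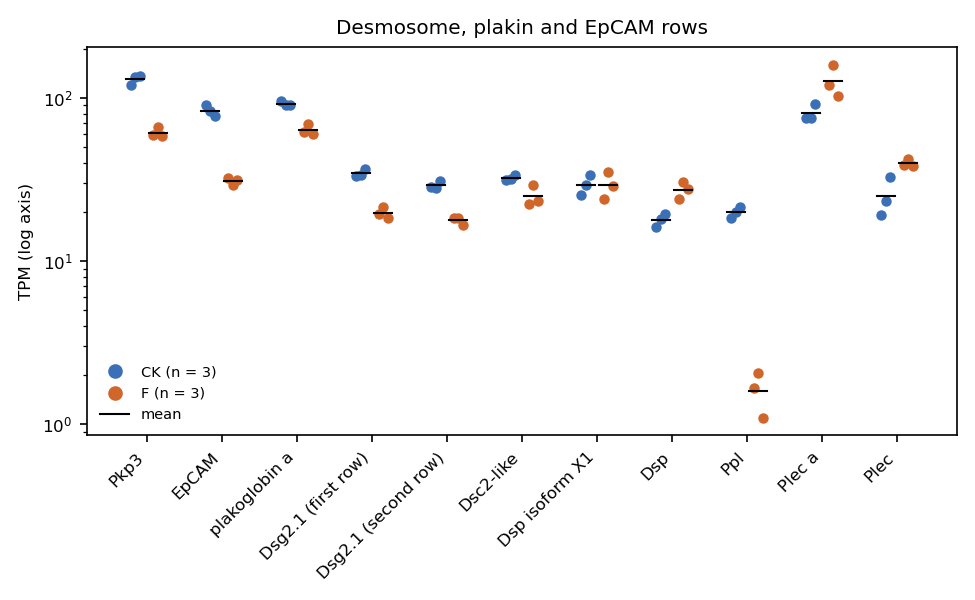
TPM on a log axis for desmosome, plakin and EpCAM rows, with 1 point per library (CK blue, F orange, n = 3 each) and a line at each mean; plakoglobin a is shown beside the members as the plaque partner of the plakophilins. Plakophilin-3, EpCAM, both desmoglein-2.1 rows and periplakin are lower in every F library than in every CK library, with periplakin at 1.10 to 2.06 TPM in F.

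The rule also caught 5 rows of associated proteins that carry a keratin, vimentin or periplakin name and were counted outside the filament and desmosome classes. Kazrin b, which binds periplakin, was the only one of the 4 tested that passed (25% rose, beside 6.15% of all tested rows). It had 2.88, 2.45 and 3.31 TPM in CK and 7.32, 10.5 and 7.28 TPM in F, a log2 change of 1.26 (SE 0.20, limma, adjusted p = 0.0121). Every F library was above CK, opposite to periplakin. The call was lost without CK replicate 2 (adjusted p = 0.0533) and with a block for replicate number (0.0625). The more abundant kazrin-A row, outside the rule, overlapped at 22.3 to 26.3 TPM in CK and 23.2 to 42.8 TPM in F (limma, adjusted p = 0.325). Keratinocyte-associated protein 2, a subunit of the oligosaccharyltransferase, had a mean of 55.1 ± 2.78 TPM in CK against 47.6 ± 10.9 TPM in F (SD, n = 3 each, limma, adjusted p = 0.500).

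Other genes of the same structures were read from lists of names. Of 20 tested rows of further desmosome, hemidesmosome and cytolinker proteins, 3 rose (15%) and 2 fell (10%), beside 6.15% and 6.07% of all tested rows. Junction plakoglobin a, the plaque partner of the plakophilins, fell with them, from 95.6, 91.02 and 90.4 TPM to 61.9, 69.2 and 60.0 TPM (log2 change -0.53, limma, adjusted p = 0.00863, and 0.0590 without the mean trend). The main row of the hemidesmosome-associated tetraspanin CD151 rose by a log2 change of 1.18 (limma, adjusted p = 0.00106). A less abundant CD151-like row had 0.0067 (adjusted p = 0.983). Integrin alpha-6, the partner of CD151, had a rising row (2.63, adjusted p = 0.00337) and a more abundant falling row named alpha-6b (-0.72, adjusted p = 0.0135, and 0.0575 without CK replicate 2). Epiplakin rose by 1.59 (limma, adjusted p = 0.0114, and 0.0512 without F replicate 1). The most abundant row of the list, the desmosome protein PERP, had a log2 change of 0.30 that did not pass (adjusted p = 0.0528).

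Of 8 tested rows of other intermediate filament proteins, 2 rose (25%) and 2 fell (25%), beside 6.15% and 6.07% of all tested rows. Those that rose were the nuclear lamins B2 (0.87, limma, adjusted p = 0.0132) and B1 (0.92, adjusted p = 0.0438). Those that fell were the muscle-associated syncoilin (-1.76, adjusted p = 0.00207) and synemin (-1.42, adjusted p = 0.00824), both of which passed in every alternative setting, whereas lamin B2 lost the call without CK replicate 2 or 3 or F replicate 1 (adjusted p up to 0.0592). Lamin B1 lost it without CK replicate 1, 2 or 3 or F replicate 1, among other settings (adjusted p up to 0.125).

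Regulators of the epithelial and mesenchymal states moved in both directions. Of 28 tested mesenchymal rows, 3 rose (10.7%) and 3 fell (10.7%), beside 6.15% and 6.07% of all tested rows. Their median log2 change was -0.19. The repressors of epithelial genes snail 1a (1.11, limma, adjusted p = 0.00565) and zeb1b (0.86, adjusted p = 0.00710) rose in every alternative setting. None of their relatives passed as higher in F. SNAI2 was slightly lower in every F library (-0.21, adjusted p = 0.217), and the snail homolog Sna-like had -0.53 (adjusted p = 0.250). The other zeb1 rows had -0.21 (adjusted p = 0.617) and -0.91 (adjusted p = 0.621). Twist3 fell from 171, 168 and 173 TPM to 107, 133 and 102 TPM (-0.59, limma, adjusted p = 0.0189), a call lost without CK replicate 1, 2 or 3 or F replicate 1, among other settings (adjusted p up to 0.0721). Paired mesoderm homeobox protein 1 rose (0.82, adjusted p = 0.0126, and up to 0.0566 without CK replicate 1 or 2), whereas a more abundant row named paired mesoderm homeobox protein 1-like had means of 442 TPM in CK and 445 TPM in F (0.01, adjusted p = 0.952), and paired mesoderm homeobox protein 1a had a log2 change of -0.10 (adjusted p = 0.809). The fibroblast surface protein thy-1 fell (-0.72, adjusted p = 0.0184, and up to 0.0701 without CK replicate 1 or 2 or F replicate 2 or 3 or without the mean trend). A low zeb2-like row, listed at 0 in all F libraries, also fell, with a call lost in 8 of 12 settings, among them each left-out library but F replicate 2. Log2 changes of the other tested zeb2 rows lay between -0.95 and 0.45, and none passed. The highest was that of a zeb2-like row from the same assembly cluster as zeb1b. It was higher in every F library, at 17.9, 19.0 and 20.1 TPM in CK and 26.5, 31.4 and 21.9 TPM in F (limma, adjusted p = 0.0962). Fibronectin 1a, the most abundant row of the list, had a log2 change of 0.47 (adjusted p = 0.357). Of 8 tested epithelial rows, 2 rose (25%, beside 6.15% of all tested rows) and none fell. These were AP-2 gamma (0.60, limma, adjusted p = 0.0177, and up to 0.0727 without CK replicate 2 or F replicate 1, among other settings) and grainyhead-like 2b (1.26, adjusted p = 0.0475), which lost the call in 9 of 12 settings, including each left-out library (adjusted p up to 0.140). Tumor protein 63, a master regulator of stratified epithelium, had a log2 change of 0.09 (limma, adjusted p = 0.803).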

How the data were processed

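The authors deposited 1 table of TPM values for 61608 genes of a de novo assembly with Trinity identifiers and protein names; per the labels, the submitters' processing notes name RSEM 1.3.3, TopHat2 2.1.1, Cufflinks 2.2.1 and DESeq2 1.24.0, and how the aligner and Cufflinks entered a table of assembled genes is not given in the sources used here. TPM keeps no read depth, so no counting interval can be given and the DESeq2 test could not be run. The deposited group means were not used. Groups came from the labels, which number 3 samples per group. The study's methods call them biological replicates, without saying in the sources used here whether they were separate cultures, so p-values measure the spread between these samples.

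The members and lists were chosen with earlier results of these data known. Values were analysed as log2(TPM + 1) in limma 3.58.1 (R 4.3.3, eBayes with a mean trend, two-sided), for rows of at least 1 TPM in at least 3 of 6 libraries. The fit was tested on simulated data. Named members were those with an adjusted p under 0.05, the most abundant tested row of each class, and tested rows with a mean of at least 100 TPM; others described with values (keratins 15 and 19-like, the second plectin and vimentin rows, desmoglein-2, desmoglein-1-gamma and low plakophilins) were added to account for the classes. An exact two-sided permutation test of 3 against 3 cannot go below p = 0.1. Lists were matched by name, and false matches such as filamins were left out after the names were read. As first matched, the 4 lists held 27, 36, 20 and 59 rows (filaments, linkers, epithelial, mesenchymal). Of these, 16, 22, 9 and 33 were tested. Among the tested rows 2, 3, 2 and 3 rose (12.5%, 13.6%, 22.2% and 9.09%, beside 6.15% of all tested rows). Those that fell numbered 2, 3, 0 and 5 (12.5%, 13.6%, 0% and 15.2%, beside 6.07%). The endothelium pattern caught mainly other proteins with von Willebrand factor in their names, and the pigment cell pattern caught only D-dopachrome decarboxylase, so neither list marks its cell type. The epidermal pattern took any claudin, and the neuron sum rests on 1 row. Those sums therefore do not measure epidermal or neuronal content either. Figures were drawn with matplotlib 3.10.9.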

Additional observations from a re-analysis of the deposited data

How the results depend on the processing

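The members that fell numbered 9 and those that rose 3. Without a mean trend in the variance 5 fell, and with a log2 change beyond 1 required 4 fell. Leaving out 1 library at a time gave 5 to 10 that fell and 0 to 4 that rose; 5 fell without CK replicate 1, 2 or 3 or F replicate 1, none rose without CK replicate 2, and 1 rose without CK replicate 1 or F replicate 2. Over all tested rows, 1229 rose and 1465 fell beyond a log2 change of 1; with a filter at 5 TPM these were 613 and 786, and with 1 library left out 696 to 1043 and 812 to 1163. Replicate numbers did not pair the samples (correlations of same-numbered deviations between 0.0055 and 0.0090). With the replicate block, 1 member rose and 6 fell at an adjusted p under 0.05. In that setting 655 of all rows rose and 799 fell with a log2 change beyond 1 also required. All rows were not counted at the members' threshold in the alternative settings, so these member counts have no background share beside them. Of the 12 named members that passed, 5 passed in every setting (EpCAM, periplakin, plakophilin-3 and both desmoglein-2.1 rows), and none changed direction. The cause of these losses was not tested, beyond the fewer samples of a fit with a library left out. The smaller pseudocount of 0.1, no filter, scaling by median of ratios or quantiles, summing rows of 1 name and dropping the 5 rows of associated proteins kept the counts of members within 1.5 times. TPM gives no depth, so the counting error of rows near 1 TPM is unknown.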

Other observations

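The table also annotates protein domains, and 33 rows carried an intermediate filament domain, of which 13 were members. Of the 14 tested rows with this domain outside the members, 5 rose (35.7%) and 2 fell (14.3%) in F, beside 6.15% and 6.07% of all tested rows. Among these called rows are lamins B1 and B2, syncoilin and synemin, already given above, and a row named hyaluronan mediated motility receptor. The most abundant of them, a row named lamin, stood at 153, 158 and 172 TPM in CK and 238, 247 and 265 TPM in F, without overlap (log2 change 0.63, limma, adjusted p = 0.00453). It was singled out after its values were seen.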
